A study of Macaca mulatta with 5 samples.

Results

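Long noncoding RNAs (lncRNAs) whose listed level lay within 2-fold in both cell types were examined in rhesus monkey (Macaca mulatta) cells. They were selected on their measured levels, the FPKM in both libraries and its ratio, and on position and genomic span, from a table of 1404 listed transcripts. A lncRNA was included if it lay on chromosomes 1 to 20, spanned at least 1000 bp and under 50 kb from its first to its last base, was the single entry at its position, stood at an FPKM of at least 3 in each library, and had a ratio of its FPKM values between 0.5 and 2. An lncRNA cluster on chromosome 7 and another on chromosome 2 were left out. These steps gave 116 lncRNAs, or 8.26% of the table. They are called lncRNAs within 2-fold here, since a ratio of single libraries cannot show that a level is steady.

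The samples were rESC, rhesus monkey embryonic stem cells, and R_NSCP1, a cell sample whose name the labels do not spell out and whose cell type label also reads embryonic stem cell. The series title concerns neural fate determination from these stem cells. Each had 1 lncRNA library, from total RNA depleted of ribosomal RNA, and 1 methylated DNA immunoprecipitation (MeDIP) library, and an input mixed from both was not analysed here. The labels give no treatment, time, passage, animal or sex for either sample, and transcripts carry no gene names, so the cell types could not be checked against markers.

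lncRNAs are transcripts that are not translated into protein, and many are spliced and capped like messenger RNA. Their levels usually depend more on cell type than those of protein-coding genes, and in pluripotent and neural cells many are switched on or off with lineage, while a smaller group acts in processes that all cells share. MeDIP uses an antibody against methylated cytosine, a DNA mark that at promoters goes with silencing and within transcribed regions is often present at active genes.

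FPKM counts the fragments of a transcript relative to its length and to the mapped fragments of the library, so levels may be compared between lncRNAs. The 2 libraries have no replicates, and the depth behind the FPKM values is unknown, so no error of a single value and no test can be given. Ratios are R_NSCP1 over rESC. The FPKM values of the whole table summed to 11141 in rESC and 8895 in R_NSCP1. Autosomal lncRNAs outside the 2 clusters left out held 8630 and 7534 of these. Part of the gap between the sums thus lies in the other entries, and scaling to equal FPKM sums below includes them. Since levels and ratios chose these lncRNAs, both are a description.

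Most lncRNAs within 2-fold stood at low to moderate levels, and a few were very abundant. The median FPKM was 5.91 in rESC (quartiles 4.14 to 9.50, range 3.006 to 634) and 5.43 in R_NSCP1 (quartiles 3.91 to 8.33, range 3.005 to 362). Of the 116, 88 stayed under an FPKM of 10 in both libraries and 21 reached 10 in both. Their FPKM values added up to 18.4% of the whole table in rESC and 17.1% in R_NSCP1. The 10 most abundant held 62.4% of that sum in rESC and 54.5% in R_NSCP1, so the share rests on few transcripts. Of the 46 lncRNAs among the 100 highest of both libraries, all above the FPKM floor, 17 belonged to the set. That is near the share among all listed lncRNAs at an FPKM of at least 3 in both, 116 of 304.

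**Figure D1:**
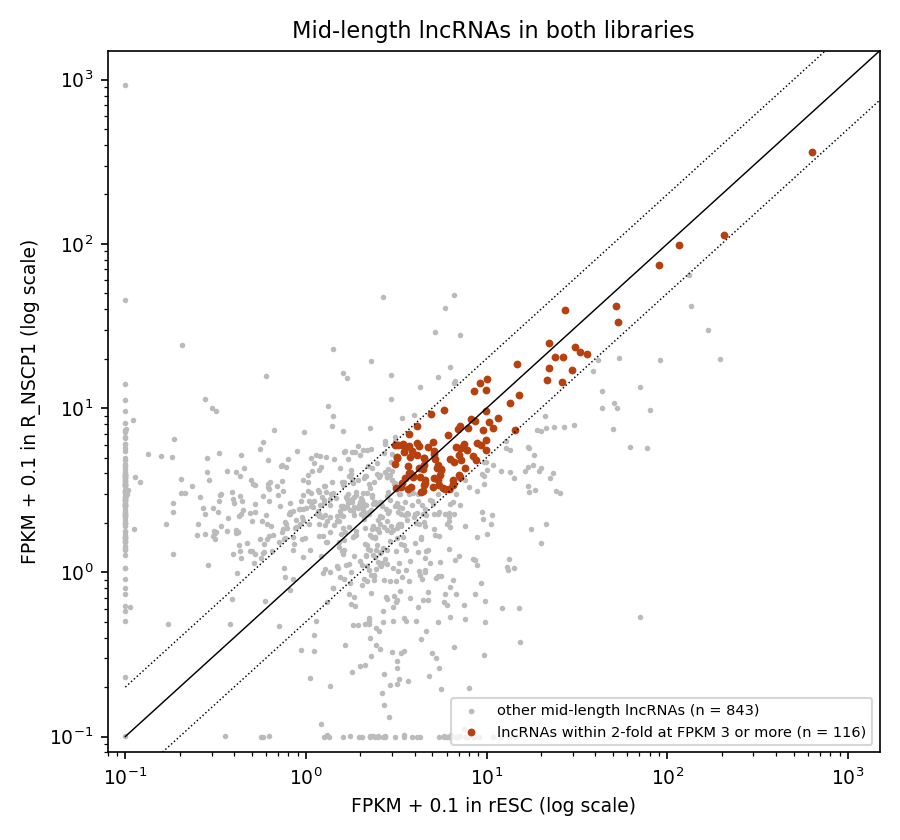
FPKM + 0.1 in rESC (x axis, log scale) and in R_NSCP1 (y axis, log scale) for mid-length lncRNAs, with 1 point per lncRNA, the solid line at equal levels and the dotted lines at 2-fold. The 116 lncRNAs within 2-fold lie between the dotted lines by the way they were chosen, and the other 843 lie outside them or below an FPKM of 3 in at least 1 library.

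Being at an FPKM of at least 3 in both libraries went with a ratio within 2-fold to about the same extent in this size class as in the whole table. Of 183 mid-length lncRNAs at that level in both, 116 lay within 2-fold (63.4%). Of 304 listed lncRNAs of any length and place at that level, which include these 183, 192 did (63.2%). Of all 1395 lncRNAs detected at an FPKM of 0.1 or more in at least 1 library, 34.6% lay within 2-fold on the log2(FPKM + 0.1) scale. Part of this gap is built in, since a floor in both libraries leaves out lncRNAs absent from 1 of them. The 67 others of the 183 were uneven: 54 stood below a ratio of 0.5 and 13 above 2. The unevenness depended on scale. With R_NSCP1 raised so that both FPKM sums are equal, 39 of the same 183 stood below and 23 above.

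The most abundant lncRNA lay on the plus strand at chr11:53371688-53372961, a span of 1274 bp. Its FPKM was 634 in rESC, rank 2 of that library, and 362 in R_NSCP1, rank 4. The ratio of 0.571 lay near the lower bound of the set. The second most abundant, on the plus strand at chr9:47093116-47095917, stood at 205 in rESC and 113 in R_NSCP1 (ratio 0.550). These 2 were the only lncRNAs of the set at 100 or more in both libraries.

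The next lncRNAs in order of abundance were closer to equal levels. One on the plus strand at chr19:1647391-1656302 had an rESC level of 115 and an R_NSCP1 level of 97.8 (ratio 0.848). One on the plus strand at chr12:37215702-37251655, with a span of 35954 bp among the 3 longest, stood at 89.4 and 74.6 (ratio 0.835). A lncRNA on the plus strand at chr10:28826930-28829003 had levels of 52.2 in rESC and 41.7 in R_NSCP1 (ratio 0.800). In all 3 the rESC value was the higher one as deposited.

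The other 5 of the 10 most abundant included 1 that was higher in R_NSCP1. Of all 10, 9 were higher in rESC as deposited and 6 with equal FPKM sums. That one lay on the plus strand at chr19:462283-468415 and had levels of 27.0 in rESC and 39.4 in R_NSCP1 (ratio 1.46). A lncRNA on the minus strand at chr10:30542459-30545567 stood at 53.2 in rESC and 33.5 in R_NSCP1 (ratio 0.630). The longest of the whole set, 47330 bp on the plus strand at chr19:58190689-58238018, stood at 35.8 and 21.2 (ratio 0.593). Both were on the lower side of the range. On the minus strand at chr5:113223257-113227572 the values were 32.9 and 21.8 (ratio 0.663). On the plus strand at chr7:18555758-18571196 they were 30.5 and 23.6 (ratio 0.772).

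**Figure D2:**
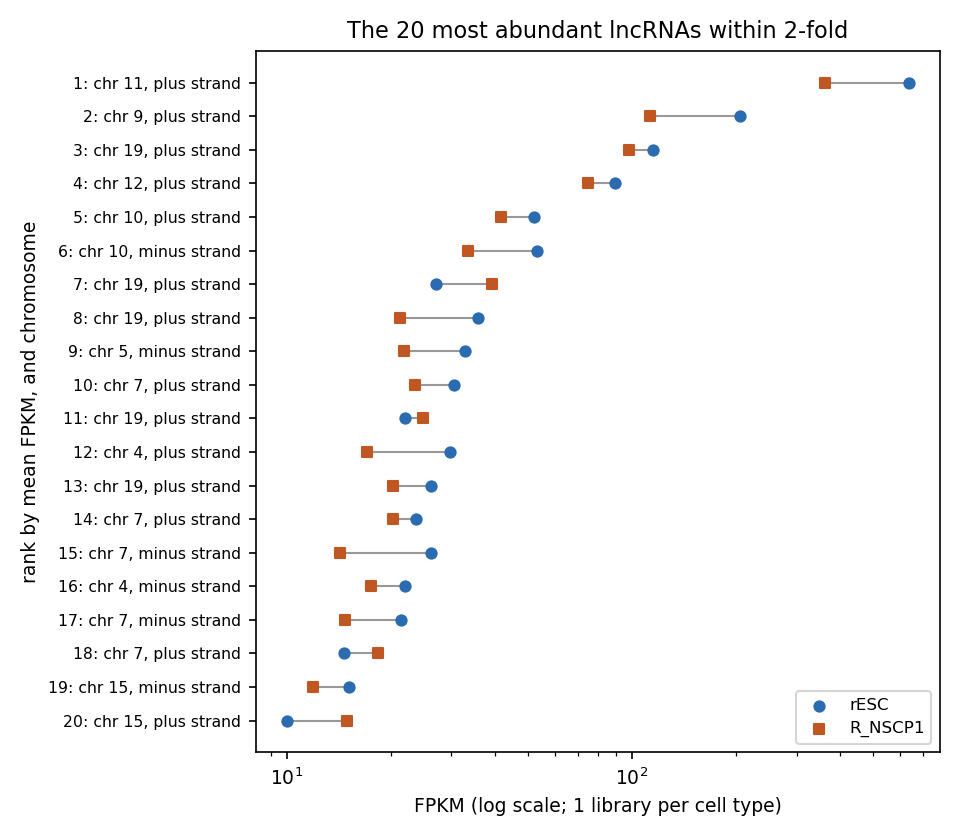
FPKM (x axis, log scale) of the 20 lncRNAs within 2-fold with the highest mean FPKM, with circles for rESC, squares for R_NSCP1 and a line joining the values of 1 lncRNA. Among the first 10, the circle lies to the right of the square in 9, which would be 6 with equal FPKM sums.

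As deposited, direction within the set leaned towards rESC, and more so among the abundant lncRNAs. Among all 192 listed lncRNAs with the same floor and ratio bounds, which include the set, 56.8% were higher in rESC. Of the 116, 71 (61.2%) were higher in rESC and 45 in R_NSCP1. The median ratio was 0.848 (quartiles 0.692 to 1.13), and the median difference was -0.24 on the log2(FPKM + 0.1) scale, beside 0.09 over all 1395 detected lncRNAs. In 4 groups of 29 ordered by mean FPKM, 22 were higher in rESC in the most abundant group (mean FPKM 9.14 to 498) and 21 in the next (5.35 to 8.38). In the other groups 13 and 15 of 29 were higher in rESC, which is near an even split. The lean depended on the FPKM floor. With a floor of 1, 154 of 300 (51.3%) were higher in rESC, and with a floor of 10, 17 of 21 (81.0%). The lean also depended on how the libraries were scaled. With the median FPKM of lncRNAs detected in both libraries made equal, 66 of the same 116 were higher in rESC. The median difference was then -0.18, beside 0.14 over all detected lncRNAs. With equal FPKM sums 51 of the same 116 (17, 16, 10 and 8 in the 4 groups) were higher in rESC. The median difference was then 0.09, while that of all detected lncRNAs moved to 0.40. On each of these scales the median of the set lay below the median over all detected lncRNAs. Scaling shifts both medians by nearly the same amount, so the added scales are no separate check. The set was also chosen on its levels and ratios, so this comparison is a description.

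The lncRNAs with ratios nearest to 1 were of low abundance. This is partly built in, since the floor of 3 in both libraries narrows the ratios possible at the lowest levels. On the plus strand at chr9:93219388-93223767 the FPKM was 3.25 (rESC) and 3.22 (R_NSCP1), and on the minus strand of the same chromosome from 629659 to 630828 it was 3.81 and 3.75. At chr15:89236916-89251330 (plus strand) the values were 4.39 and 4.43, at chr16:32922841-32925095 (minus strand) 4.14 and 4.21, and at chr1:4062735-4067933 (minus strand) 3.75 and 3.83. None of the 5 reached an FPKM of 5. Across the set 76 lncRNAs had a ratio between 0.667 and 1.5, 25 lay lower and 15 higher.

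The bounds of the set cut through a continuous range. Just inside the lower ratio bound lay lncRNAs at chr3:188813588-188815538 (14.2 in rESC, 7.25 in R_NSCP1, ratio 0.510), chr8:40585236-40589073 (6.12 and 3.12, ratio 0.510) and chr5:54700134-54704991 (6.39 and 3.31, ratio 0.518). Just outside it lay an abundant lncRNA at chr5:36647406-36651201 (132 and 64.6, ratio 0.490), one at chr20:65012740-65013906 (6.27 and 3.06, ratio 0.488) and one at chr19:56074431-56084686 (12.7 and 6.19, ratio 0.487). Scaling R_NSCP1 by 1.04, which makes the median FPKM of lncRNAs detected in both libraries equal, moves these 3 past the bound.

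At the upper ratio bound the members just inside lay at chr5:80530843-80550400 (3.01 and 5.82, ratio 1.94), chr2:157521954-157529240 (4.03 and 7.68, ratio 1.91) and chr4:30593826-30616918 (4.81 and 9.13, ratio 1.898). Just outside lay lncRNAs at chr6:130510647-130513755 (3.01 and 6.19, ratio 2.05), chr15:103149608-103154683 (3.02 and 6.53, ratio 2.16) and chr7:57287592-57290902 (6.48 and 14.2, ratio 2.18). At the FPKM floor of 3, the closest lncRNA inside, at chr10:75707492-75717165, had 4.24 in rESC and 3.005 in R_NSCP1, and the closest outside, at chr18:56558926-56560152, had 2.996 and 3.40.

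Spans were of like size in the lists compared. The median span was 4376 bp (quartiles 2246 to 8764), beside 4099 bp for all 959 mid-length lncRNAs, 4734 bp for the 213 mid-length lncRNAs lower in R_NSCP1 and 4424 bp for the 156 higher in it. Lower and higher here mean a ratio under 0.5 or above 2 with the higher of both FPKM values at 3 or more. The shortest lay at chr5:74154482-74155482 (1001 bp, 4.46 in rESC and 3.38 in R_NSCP1), chr7:103885-104894 (1010 bp, 21.4 and 14.8) and chr5:88222396-88223443 (1048 bp, 3.42 and 3.66). The second longest, 36483 bp at chr13:63323472-63359954, stood at 4.47 and 3.53. Long and short lncRNAs were found at both high and low levels. Across the 116 lncRNAs, which share both libraries, Spearman's rho of span with mean FPKM was 0.09. Strand was evenly spread, with 61 on the plus and 55 on the minus strand.

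The lncRNAs within 2-fold lay on all 20 autosomes, with the most on chromosome 19. Outside the 2 clusters left out, 1247 lncRNAs were listed on these chromosomes, and 9.30% of them (95% Wilson interval 7.81% to 11.04%, for counting error only, as for all such intervals here) were in the set. Chromosome 19 held 15 of its 88 listed lncRNAs in the set, 17.0% (10.6% to 26.2%), chromosome 5 held 12 of 72, 16.7% (9.80% to 26.9%), and chromosome 15 held 7 of 42, 16.7% (8.32% to 30.6%). The lowest shares were those of chromosome 8, 2.86% (0.787% to 9.83%), chromosome 20, 3.39% (0.935% to 11.5%), and chromosome 1, 3.74% (1.46% to 9.22%). The interval of chromosome 19 overlapped that of chromosome 20 but not those of chromosomes 8 and 1, all picked as extremes out of 20. Per 100 mid-length lncRNAs, chromosomes 5 (23.5) and 15 (22.6) stood above chromosome 19 (20.3). On chromosome 19, 10 of the 15 were higher in R_NSCP1 (13 with equal FPKM sums), against 35 of the 101 elsewhere (52 with equal FPKM sums). On chromosome 10, 8 of 9 were higher in rESC (5 with equal FPKM sums). These chromosomes were singled out after their values were seen.

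**Figure D3:**
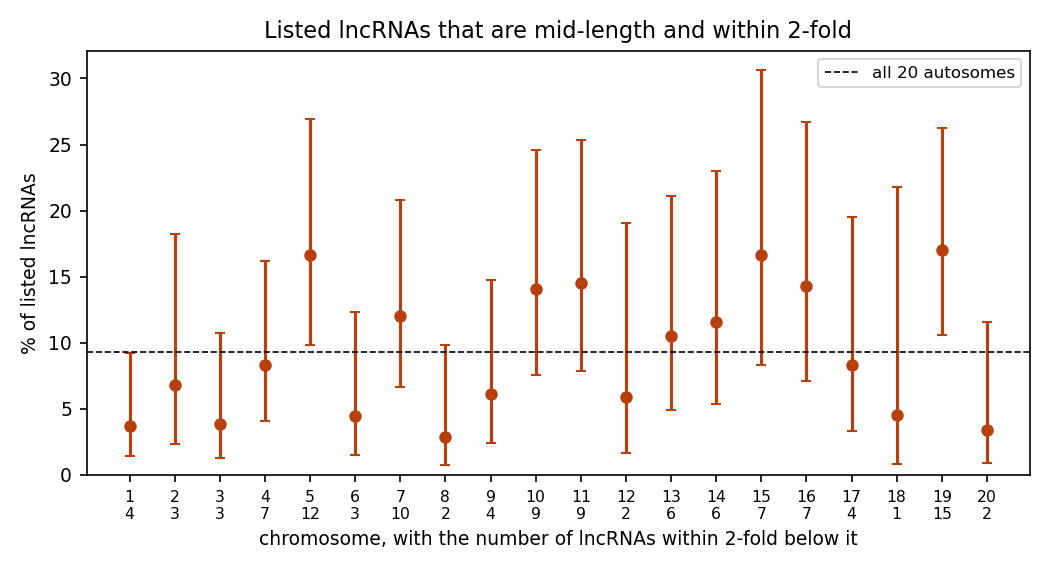
Share of the listed lncRNAs of each chromosome that were mid-length and within 2-fold (y axis, %), with 95% Wilson intervals, by chromosome (x axis, with the number in the set). The dashed line is the share over all 20 autosomes, 9.30%, and lies inside every interval other than those of chromosomes 1, 5 and 19.

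Of the 116, 22 (18.97%, 12.9% to 27.0%) began within 5 Mb of the first or last position of their chromosome, the last being the highest that the files give, beside 15.0% of the 1247 autosomal lncRNAs, 10.3% (6.92% to 15.1%) of those lower in R_NSCP1 and 11.5% (7.42% to 17.5%) of those higher in it. Within 1 Mb of an end there were 10 (8.62%, 4.75% to 15.1%), beside 4.65% of autosomal lncRNAs, 1.88% (0.733% to 4.73%) of those lower in R_NSCP1 and 2.56% (1.002% to 6.41%) of those higher in it. The interval of the set lay just above that of the lncRNAs lower in R_NSCP1 and overlapped that of the lncRNAs higher in it. The closest, on the minus strand at chr5:184049855-184052356, began 17.0 kb from the last position, with levels of 5.51 (rESC) and 4.18 (R_NSCP1). A lncRNA on the minus strand at chr18:74270324-74272163 stood at 5.10 and 4.81, and one on the minus strand at chr8:357432-358929 at 4.15 and 3.69. Of the 10, 7 were higher in rESC, and 4 with equal FPKM sums.

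Many listed transcripts overlap, and an entry within 2-fold could share its place with entries that were not. Of the 116, 26 overlapped another listed lncRNA on the same strand (22.4%, 15.8% to 30.8%). That share was 23.7% in all 959 mid-length lncRNAs, which include the set, and 28.4% in autosomal lncRNAs. The autosomal lncRNAs include positions listed more than once, whose entries overlap each other by construction. On the other strand 3 of the 116 (2.59%) overlapped a listed lncRNA, beside 2.65% of autosomal lncRNAs. Of the 26, 10 overlapped each other in 5 pairs, so the 116 transcripts lay at 111 separate places. No source used here says how fragments were divided among overlapping transcripts, so the levels of these 26 are uncertain. The other 90 had no same-strand overlap, and 55 of them were higher in rESC (39 with equal FPKM sums), with a median ratio of 0.857.

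Near-identical transcripts could differ widely. On the minus strand the lncRNA at chr7:50686574-50692159 was nearly even, at 7.77 (rESC) and 7.45 (R_NSCP1). A second transcript that begins 2 bp away and has the same end stood near 0 in rESC (0.000931) and at 7.38 in R_NSCP1. The pair summed to 7.77 and 14.8, a ratio of 1.91 where the single transcript gave 0.959. On the minus strand at chr15:107149627-107153999 the lncRNA stood at 15.1 and 11.9, whereas a transcript that begins 5 bp away stood at 41.0 and 19.5 and another was listed at 0 in rESC and at 3.26 in R_NSCP1.

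For 3 lncRNAs the sum over overlapping same-strand transcripts, a measure chosen after the data were seen, left the 2-fold range, each time towards rESC on the deposited scale. On the plus strand at chr4:32063084-32067820 the lncRNA alone had levels of 29.6 (rESC) and 17.1 (R_NSCP1), and the sum with its 2 overlapping transcripts was 54.3 and 21.1 (ratio 0.389). On the minus strand at chr4:30593826-30616918 it stood at 4.81 and 9.13, but the 2 longer transcripts over it added up to 15.95 in rESC and 0.566 in R_NSCP1. The sum of the 3 was 20.8 in rESC and 9.70 in R_NSCP1 (ratio 0.467). At chr8:40585236-40589073 the sum was 15.5 and 6.97 (ratio 0.450). With equal FPKM sums 1 of these 3, at chr4:32063084-32067820, stayed below the range, while the sums at chr7:50686574-50692159 and chr11:123729757-123736403 passed it on the side of R_NSCP1, at ratios of 2.39 and 2.26. As deposited, the sums of the other 23 lncRNAs stayed within 2-fold, which the members themselves, included in each sum, favour. Sums are counted per lncRNA here. The members of each of the 5 overlapping pairs share 1 sum, so the 26 are not all separate. In 6 of the 26 a lncRNA that was higher in R_NSCP1 by itself belonged to a sum that was higher in rESC, and in 1 the reverse held. With equal FPKM sums these counts were 5 and 4, so the asymmetry depended on the scale.

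**Figure D4:**
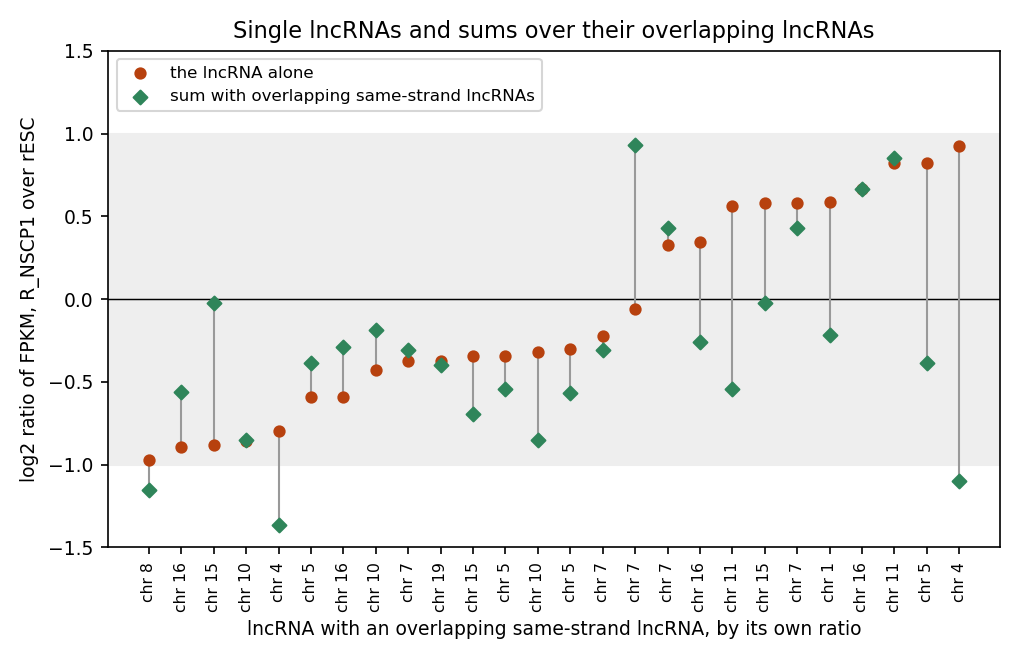
Log2 ratio of FPKM, R_NSCP1 over rESC (y axis), of the 26 lncRNAs that overlap a listed lncRNA of the same strand, alone (circles) and summed with those lncRNAs (diamonds), ordered by their own ratio and marked by chromosome (x axis). The shaded band is the 2-fold range, which 3 of the 26 sums leave on the lower side (1 on the lower and 2 on the upper side with equal FPKM sums), and the members of a pair share a sum.

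Overlapping members had ratios on the same side of 1 at some places and on opposite sides at others. On the plus strand of chromosome 7, 2 overlapping members from 18555758 to 18571196 and from 18569997 to 18574483 stood at 30.5 and 23.7 in rESC and at 23.6 and 20.3 in R_NSCP1. Another overlapping pair of that strand, from 72123666 to 72138072 and from 72125706 to 72133253, was higher in R_NSCP1 for both, with 8.43 and 14.6 in rESC against 12.6 and 18.4. On chromosome 15, 2 members that share a start at 1540101 differed in direction. The longer one, ending at 1542729, stood at 10.005 and 14.9, and the shorter one, ending at 1542055, at 8.66 and 4.70. A pair with a common start on chromosome 5 also differed in direction, with 32.9 and 21.8 for the longer transcript and 3.36 and 5.94 for the one from 113224624 to 113227572. One more transcript begins 36 bp from that start on the opposite strand and stood at 1.72 and 1.38.

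Across all members, 51 detected lncRNAs lay within 10000 bp, 28 of them within 2-fold, but 14 of these 51 were members themselves. Of the 37 that were not, 14 (37.8%, 24.1% to 53.9%) lay within 2-fold, beside 34.6% of all detected lncRNAs, while 15 were higher in rESC by 2-fold or more and 8 in R_NSCP1, beside 30.8% and 34.7% of all detected lncRNAs. With equal FPKM sums 18 of the 37 lay within 2-fold, 11 were higher in rESC and 8 in R_NSCP1. The matching shares of all detected lncRNAs on that scale were 34.4%, 26.2% and 39.4%. Taking members out of their own neighbours lowers the share of neighbours within 2-fold by construction. On the opposite strand, the abundant lncRNA of chr19:1647391-1656302 contained a transcript from 1650580 to 1656173 that stood at 19.9 in rESC and 7.18 in R_NSCP1. The lncRNA of chr17:71885814-71893237, at 7.46 and 4.23, lay wholly within an opposite-strand transcript at 9.63 and 3.76. The third, at chr12:51715690-51728735, stood at 6.19 and 4.82 and overlapped 3 opposite-strand transcripts with ratios on both sides of 1, the closest to even at 4.63 and 2.23. The library kit keeps the strand, per the labels' protocols, but no source used here says whether strand was used in counting.

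MeDIP peaks, which the choice of lncRNAs did not use, were rare at their starts. In rESC, 4 of the 116 had a peak within 1000 bp of the start (3.45%, 1.35% to 8.53%), beside 4.89% of autosomal lncRNAs. In R_NSCP1, 8 had one (6.90%, 3.54% to 13.02%), beside 8.5%. Among lncRNAs lower in R_NSCP1 the shares were 3.29% (1.60% to 6.63%) and 6.57% (3.96% to 10.7%), and among those higher in it 4.49% (2.19% to 8.97%) and 7.05% (3.98% to 12.2%). All these intervals overlapped, but overlap of intervals is no test, and a difference of the set was not tested. No peak of either library was near the start of 107 of the 116 (92.2%), beside 90.5% of autosomal lncRNAs. The peak lists held 48838 rESC and 83528 R_NSCP1 peaks, called without a control, from 8690541 and 9071243 tags. A common build of peaks and transcripts was assumed.

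**Figure D5:**
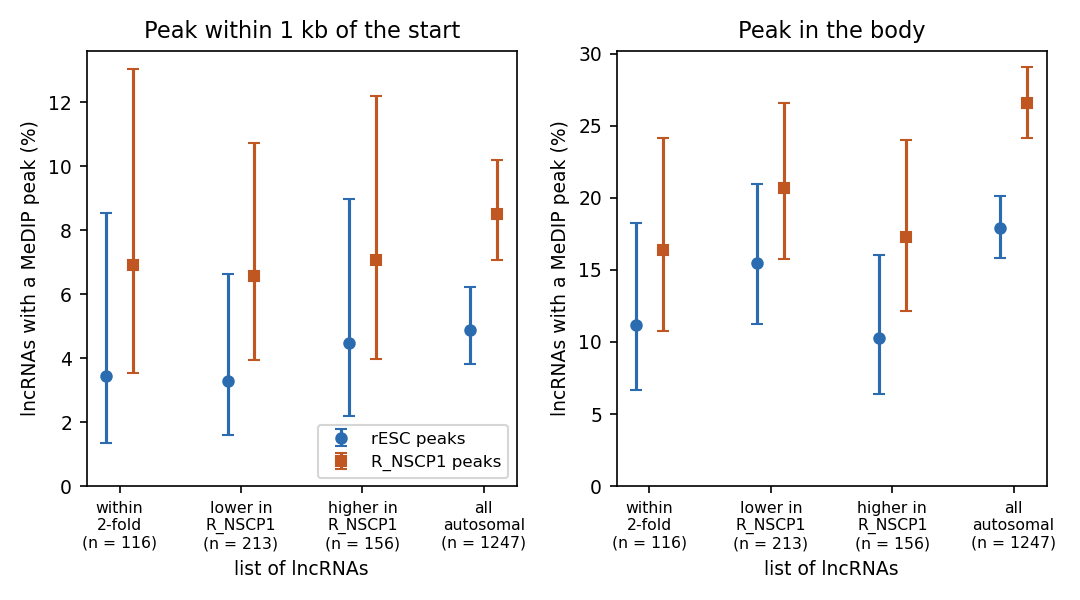
Share of lncRNAs (y axis, %) with a MeDIP peak within 1 kb of the start (left) or overlapping the body (right), for rESC peaks (circles) and R_NSCP1 peaks (squares), with 95% Wilson intervals, in each list of lncRNAs (x axis). The intervals of the lncRNAs within 2-fold overlap those of the lists lower and higher in R_NSCP1 in both panels.

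At 3 starts (2.59%) a peak was called in both libraries, beside 3.85% of autosomal lncRNAs. At the lncRNA of chr19:1647391-1656302, 2 rESC peaks, from 1646654 to 1646949 and from 1647055 to 1647310, and 1 R_NSCP1 peak, from 1646732 to 1647311, lay upstream of the start, with authors' fold enrichments of 4.34, 4.60 and 5.49 over local background. At the lncRNA of chr19:462283-468415 a peak covered the start in each library, from 462058 to 462330 in rESC (fold enrichment 4.73) and from 462020 to 462326 in R_NSCP1 (5.36). Both lncRNAs were among the 10 most abundant of the set.

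The third, near the end of chromosome 5 at chr5:184049855-184052356, had peaks from 184051670 to 184052102 in rESC and from 184051536 to 184052092 in R_NSCP1. Their pileups were 271 and 269 fragments, ranks 13 and 20 of the lists, where the median pileup was 13 in each. Yet the fold enrichments were 6.24 and 6.48, near the list medians of 6.01 and 6.23, so the local background was also deep. With no control in the peak calls, methylation there cannot be told apart from copy number. This lncRNA also had the most body peaks, 2 in rESC and 3 in R_NSCP1, together with one at chr10:5589238-5620644.

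At 5 starts (4.31%) a peak was called in R_NSCP1 alone, near the 4.65% of autosomal lncRNAs. All 5 of these lncRNAs were higher in rESC as deposited and 4 with equal FPKM sums, beside 63 and 45 of the 107 with no peak near the start. They were the most abundant lncRNA, of chromosome 11, whose R_NSCP1 peak from 53370834 to 53371136 had its summit 743 bp upstream of the start (fold enrichment 6.96), and lncRNAs at chr14:8081152-8082573 (9.86 and 6.28), chr3:96427509-96432207 (5.49 and 4.10), chr16:44233887-44241656 (5.79 and 3.11) and chr19:58903434-58923486 (3.56 and 3.11). Their ratios ran from 0.538 to 0.873. In all but the most abundant, the summit lay inside the transcript, 504 to 1087 bp downstream of the start. The 1 start with a peak in rESC alone, at chr3:90317828-90319939, belonged to a lncRNA at 6.95 in rESC and 5.09 in R_NSCP1 and so was also higher in rESC. With 5 and 1 lncRNAs, no relation of peak to level could be tested.

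Peaks inside the transcribed span were also in the minority. A rESC peak overlapped 13 of the 116 spans (11.2%, 6.67% to 18.2%), beside 17.9% of autosomal lncRNAs, which include much longer ones, and an R_NSCP1 peak overlapped 19 (16.4%, 10.7% to 24.2%), beside 26.5%. Among all 959 mid-length lncRNAs, which include the set, the shares were 11.9% (9.99% to 14.1%) and 20.8% (18.3% to 23.4%), and both intervals overlapped those of the set. Per length, the set held 17.9 rESC and 28.6 R_NSCP1 peaks per Mb of span, against 18.2 and 34.6 in all mid-length lncRNAs, 18.03 and 28.96 in all autosomal lncRNAs, 22.2 and 34.8 in those lower in R_NSCP1 and 13.5 and 24.5 in those higher in it. The 15 rESC and 24 R_NSCP1 peaks within the set gave a ratio of 1.60, beside 1.90 in all mid-length lncRNAs and 1.71 in the whole lists. In the other lists of lncRNAs a peak was counted for each lncRNA that it overlapped. The peaks within the set were all distinct, and the whole lists count each peak once. Of the 15 rESC peaks, 10 (66.7%, 41.7% to 84.8%) and of the 24 R_NSCP1 peaks, 10 (41.7%, 24.5% to 61.2%) overlapped a peak of the other library, beside 67.5% and 38.7% of all autosomal peaks.

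At the 2 lncRNAs whose body peaks had the highest fold enrichment, both libraries had the peak. On chromosome 15 the lncRNA from 87834930 to 87839484, at 3.83 in rESC and 3.72 in R_NSCP1, held a peak from 87835848 to 87836199 in rESC (fold enrichment 10.3) and from 87835865 to 87836231 in R_NSCP1 (14.1). The lncRNA near the end of chromosome 8 held one from 357384 to 357708 in rESC (7.95) and from 357289 to 357749 in R_NSCP1 (11.6). Their ratios of R_NSCP1 to rESC were 0.972 and 0.889. The lncRNA of chr10:5589238-5620644, at 6.98 and 5.59, held 2 rESC and 3 R_NSCP1 peaks, and that of chr13:610196-615643, at 3.14 and 5.88, held 2 R_NSCP1 peaks, the stronger at a fold enrichment of 7.75, and none in rESC. Of the 9 lncRNAs with body peaks in R_NSCP1 alone, 7 were higher in rESC, on either scale, as were 55 of the 94 with no body peak, or 39 with equal FPKM sums. These 9 include lncRNAs already counted above for an R_NSCP1 peak near the start, and by the same peak. They lie at chr14:8081152-8082573, chr3:96427509-96432207 and chr16:44233887-44241656, so the counts are not separate observations.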

How the data were processed

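The authors' deposited table gave FPKM values for 1404 transcripts at 1356 positions, 1 column per library. Assembly, the noncoding call and quantification are not described in the sources used here. TopHat2 2.0.11 and BWA 0.7.7 are named in the submitters' processing notes. Per the file headers, MACS 2.1.0.20150731 called peaks in each MeDIP library alone, with no control and a q cutoff of 0.01. The deposited pileup signal, fold enrichment (a ratio to local background) and −log10 q describe peaks within a list. No source used here gives the genome build, no annotation was matched, and no sequence was read.

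The members and lists were chosen with earlier results of these data known. Differences are on the log2(FPKM + 0.1) scale. The table's p-values were not used. Starts were taken by strand, peaks counted within 1000 bp, and overlaps needed 1 bp. Lists were described by counts and 95% Wilson intervals, with no test, since each group had 1 library. Named lncRNAs were the 10 most abundant, the 5 nearest a ratio of 1, the 3 on either side of each ratio bound, the 3 longest and shortest, those with a peak near the start, the 2 with most body peaks (6 tied after them) and those with an overlapping lncRNA on the other strand. Others were named after their values were seen. The selection and overlap steps were tested on simulated data. The work used scipy 1.17.1, pandas 2.3.3, numpy 2.4.6 and matplotlib 3.10.9 under Python 3.11.15.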

Additional observations from a re-analysis of the deposited data

How the results depend on the processing

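No paired analysis was possible because each cell type had 1 library per assay, and for the same reason no replicate could be left out. The number of lncRNAs within 2-fold, 116, was 76 with ratios of 2/3 to 1.5, 300 with an FPKM floor of 1, 21 with a floor of 10 and 324 with no floor. It was between 122 and 146 under both scalings, any span and repeated positions. The median difference of -0.24 was 0.0858 with equal FPKM sums and kept its sign otherwise. Shares with a peak near the start, 3.45% in rESC and 6.90% in R_NSCP1, were 19.8% and 29.3% within 5000 bp and 0.862% and 1.72% at a −log10 q of at least 10, and the R_NSCP1 share was 3.45% within 500 bp and 3.45% with as many of the strongest peaks as in rESC. Shares with a body peak, 11.2% and 16.4%, were 3.45% and 5.17% at a −log10 q of at least 10, and the R_NSCP1 share was 6.03% with as many of the strongest peaks as in rESC. Wider windows take in more peaks and stricter thresholds fewer by construction.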
